A study of Mus musculus with 9 samples.

Results

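Homeostatic microglia genes are the genes that the resident immune cells of the healthy brain express strongly and most other brain cells express weakly. The 10 genes described here are P2ry12, P2ry13, Tmem119, Cx3cr1, Csf1r, Siglech, Gpr34, Olfml3, Selplg and Aif1. They were found by symbol among the 27339 genes of the table, each on 1 row, and all 10 were among the 14949 genes abundant enough to be tested. The members were chosen by symbol, with the levels of these genes and their differences between these same groups already in view. The differences below therefore describe these libraries and support nothing further.

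RNA was sequenced from mouse substantia nigra pars compacta, which holds the midbrain dopamine neurons lost in Parkinson's disease. The 9 libraries form 3 groups of 3: controls (Ctrl), MPTP alone (MPTP), and MPTP plus a medium-chain triglyceride ketogenic diet (treatment MPTP + MCT-KD, group MPTPKD). MPTP is a neurotoxin whose oxidised product is taken up by dopamine neurons and blocks mitochondrial respiration. By its title, the study is about protection of the nigra by this diet. Both treated groups carry MPTP, so a comparison of MPTPKD with MPTP speaks of the diet in toxin-treated mice, and no library of mice on the diet without MPTP was analysed here. The sources used here do not give dose, time after MPTP, length of the diet, strain, sex or age, nor whether each library came from a separate mouse. The p-values therefore set group differences against the spread between these libraries. That spread may be partly technical and need not be the spread between mice.

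Microglia survey the tissue with moving processes, and much of the homeostatic set is a set of sensors for that task. P2ry12 and P2ry13 are receptors for ADP released by damaged or active cells, Cx3cr1 receives the neuronal chemokine Cx3cl1, and Csf1r receives the survival factors Csf1 and Il34. Microglia that take up debris or meet degeneration commonly lower P2ry12, Tmem119 and Cx3cr1 and raise a separate set of disease-associated genes. Because the tissue was sequenced in bulk, fewer microglia and less of an RNA per microglial cell cannot be told apart.

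Each library held 33187343 to 40001344 counted reads. Levels of 1 gene across libraries are given as CPM, counts scaled by the library's total and its TMM factor, and levels of different genes are compared as FPKM, the authors' value per kilobase of transcript. Ctrl 3 stood apart in choroid plexus genes, whose summed level was 1244 CPM there and 27.7 to 103 CPM in the other libraries. The meningeal fibroblast genes ranged from 78.5 CPM in MPTP 1 to 278 CPM in MPTPKD 3. All 32 genes of a wider microglial identity list were abundant enough to be tested. Genes of blood monocytes and neutrophils were close to absent: 9 of 10 were too low to be tested, Cd177 was at 0 in every library, and their summed level was 0.115 to 1.65 CPM in Ctrl, 1.90 to 2.64 CPM in MPTP and 0.490 to 1.495 CPM in MPTPKD. The MPTP libraries were highest for that list, as they were for P2ry13, and the part of such cells in the P2ry13 level was not tested.

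No homeostatic gene passed the test in any comparison. The test was edgeR's quasi-likelihood test with Benjamini-Hochberg adjustment over all 14949 genes, at a threshold of 0.05. P2ry12 had the lowest unadjusted p of the members, 0.001 for MPTPKD against Ctrl, and the lowest adjusted p was that of P2ry13 for MPTPKD against MPTP, 0.686 by edgeR. The level of P2ry12 was 15.9 ± 0.578 CPM in Ctrl, 19.5 ± 2.06 CPM in MPTP and 21.1 ± 1.14 CPM in MPTPKD (mean ± SD, n = 3 each). Siglech and Aif1 had their highest mean in Ctrl, and the other members did not.

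**Figure D1:**
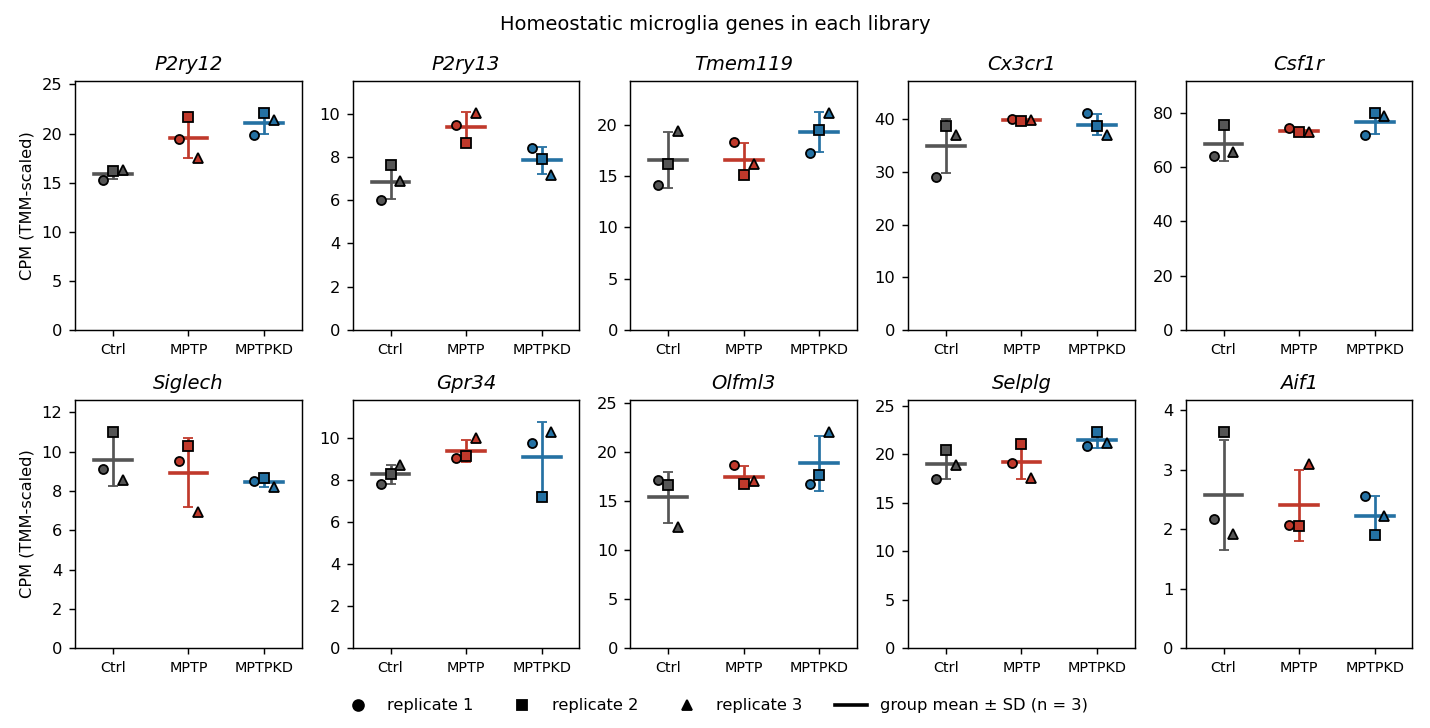
TMM-scaled CPM (y axis, starting at 0) of each of the 10 genes in the 9 libraries by group (x axis), with the group mean and SD (n = 3). P2ry12 was lowest in the 3 Ctrl libraries, and P2ry13 was highest in the 3 MPTP libraries.

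The genome positions below are from GENCODE M21 on GRCm38, and all 10 genes are annotated as protein coding. P2ry12 (chr3:59216272-59262871) and P2ry13 (chr3:59207892-59210882) are neighbours on the minus strand. Both lie inside the span of Med12l, a Mediator subunit gene on the plus strand, and share 9 and 0 exonic bases with it. On chromosome 5 Tmem119 (chr5:113793729-113800516) and Selplg (chr5:113818536-113832644) are also near each other on the minus strand. Olfml3 (chr3:103722222-103738001), Cx3cr1 (chr9:119901616-120069879) and Aif1 (chr17:35170991-35176068) are on the minus strand, and Siglech (chr7:55768178-55778925) and Gpr34 (chrX:13632089-13640858) on the plus strand. Gpr34 lies inside Cask with 0 shared exonic bases, and the annotated span of Cx3cr1 covers Gorasp1, Ttc21a, Csrnp1 and Xirp1 and meets Wdr48, with 0 shared exonic bases in each case. Cx3cr1 also shares 78 exonic bases with the antisense gene Gm33858. The sources used here do not say whether reads were counted by strand, so reads from these overlaps cannot be assigned.

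The start regions of P2ry13 and Siglech are shown. Among the 6 members searched, these 2 hold part of the site bound by PU.1 upstream of the start and outside annotated exons. PU.1 is the transcription factor that microglia and macrophages depend on. The site is GAGGAAGT, and its overlapping 6-letter parts GAGGAA and GGAAGT were searched on both strands in the 250 bases before each start in RefSeq (GRCm38.p6). The table matched 6 members (P2ry12, P2ry13, Cx3cr1, Siglech, Olfml3 and Aif1). Sequences run 5′ to 3′ on the gene's strand, with the part in capitals. The P2ry13 run is chr3:59210883-59211132, minus strand, and its GAGGAA begins 48 bases before the start. The Siglech run is chr7:55767934-55768177, plus strand, and its ACTTCC, the reverse complement of GGAAGT, begins 156 bases before the start. P2ry12 also holds GGAAGT, beginning 51 bases before its start, but all 250 bases of its window lie in annotated exons. The Cx3cr1 window likewise lies wholly in annotated exons, and it holds neither part.
P2ry13: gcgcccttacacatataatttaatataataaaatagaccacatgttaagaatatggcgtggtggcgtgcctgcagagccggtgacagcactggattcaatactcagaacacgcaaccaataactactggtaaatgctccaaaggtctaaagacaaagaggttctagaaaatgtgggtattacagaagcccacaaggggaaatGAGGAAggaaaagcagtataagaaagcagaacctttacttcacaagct
Siglech: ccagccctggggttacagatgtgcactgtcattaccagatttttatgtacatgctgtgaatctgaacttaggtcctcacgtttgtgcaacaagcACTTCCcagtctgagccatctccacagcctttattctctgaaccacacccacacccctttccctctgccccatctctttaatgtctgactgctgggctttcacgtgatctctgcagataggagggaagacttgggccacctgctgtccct
Of 32851 start windows in RefSeq, 36.7% hold either part, 23.3% GAGGAA, 19.7% GGAAGT and 2.44% the whole GAGGAAGT. Matches inside annotated exons count in these shares, unlike in the choice of the 2 sequences shown. A match of this kind is a description of the letters.

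The largest difference from Ctrl was that of an ADP receptor in each treated group, P2ry13 in MPTP and P2ry12 in MPTPKD. P2ry12 was at 15.2, 16.1 and 16.3 CPM in the Ctrl libraries, at 19.4, 21.7 and 17.5 CPM in MPTP and at 19.8, 22.0 and 21.4 CPM in MPTPKD. All 6 libraries of MPTP-treated mice were above all 3 Ctrl libraries, and the MPTP and MPTPKD libraries overlapped. How many of all genes had the 3 Ctrl libraries apart from the other 6 was not computed. In the MPTP group P2ry12 was 1.23-fold the Ctrl level, a log2 fold change of 0.30 (SE 0.0975, 95% interval 0.087 to 0.51, edgeR adjusted p = 0.893). In MPTPKD it was 1.33-fold the Ctrl level, a log2 fold change of 0.41 (SE 0.0974, interval 0.20 to 0.62, edgeR adjusted p = 0.740). Neither difference passed the adjusted threshold, although both intervals, which are not corrected for the number of genes, lay above 0. Between MPTPKD and MPTP the log2 fold change of P2ry12 was 0.11 (interval -0.098 to 0.32, edgeR adjusted p = 0.804).

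P2ry13, the neighbouring ADP receptor, had another order of groups. It was at 6.02, 7.64 and 6.88 CPM in Ctrl, at 9.48, 8.64 and 10.01 CPM in MPTP and at 8.42, 7.93 and 7.18 CPM in MPTPKD. The MPTP libraries were above all libraries of the other groups, and the Ctrl and MPTPKD libraries overlapped. How many of all genes had the MPTP libraries apart from both other groups was not computed. Its log2 fold change was 0.45 for MPTP against Ctrl (SE 0.143, interval 0.14 to 0.76, edgeR adjusted p = 0.893), the largest of the 30 member differences. For MPTPKD against MPTP it was -0.26 (SE 0.143, interval -0.57 to 0.050, edgeR adjusted p = 0.686). MPTPKD stood 0.20 above Ctrl (interval -0.11 to 0.51, edgeR adjusted p = 0.846), or 0.11 without Ctrl 1. The ratio of P2ry12 to P2ry13 counts was 2.53, 2.11 and 2.37 in Ctrl, 2.05, 2.51 and 1.75 in MPTP and 2.36, 2.78 and 2.98 in MPTPKD, so the 3 groups overlapped in that ratio. Med12l, which spans both genes on the other strand, was at 69.8 ± 3.98 CPM in Ctrl, 67.7 ± 4.83 CPM in MPTP and 64.3 ± 3.09 CPM in MPTPKD.

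Cx3cr1, the fractalkine receptor, was at 29.1, 38.7 and 37.1 CPM in Ctrl, at 40.1, 39.7 and 39.8 CPM in MPTP and at 41.1, 38.9 and 37.1 CPM in MPTPKD. Every MPTP library was above every Ctrl library, with Ctrl 2 and Ctrl 3 close to the MPTP libraries and Ctrl 1 well below them. The log2 fold change was 0.19 for MPTP against Ctrl (interval -0.013 to 0.39, edgeR adjusted p = 0.904) and 0.16 for MPTPKD against Ctrl (interval -0.045 to 0.36, edgeR adjusted p = 0.801). Without Ctrl 1 these were 0.077 and 0.046. For MPTPKD against MPTP the difference was -0.032 (interval -0.23 to 0.17, edgeR adjusted p = 0.957).

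Csf1r, the receptor tyrosine kinase on which microglial survival depends, was at 64.1, 75.5 and 65.7 CPM in Ctrl, 74.6, 72.8 and 72.9 CPM in MPTP and 71.7, 79.8 and 78.7 CPM in MPTPKD. Ctrl 2 was higher than all 3 MPTP libraries, so no pair of groups was apart. Csf1r had the narrowest intervals of the 10 genes. Its log2 fold change against Ctrl was 0.10 in MPTP (interval -0.045 to 0.25, edgeR adjusted p = 0.922) and 0.17 in MPTPKD (interval 0.020 to 0.31, edgeR adjusted p = 0.740). Csf1r lies on the plus strand at chr18:61100598-61132149 and shares 873 exonic bases with Hmgxb3 on the other strand. Hmgxb3 was at 40.4 ± 1.05, 41.0 ± 3.22 and 42.2 ± 0.634 CPM in Ctrl, MPTP and MPTPKD.

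Tmem119, a membrane protein used to tell microglia from incoming macrophages, had nearly the same mean in MPTP and Ctrl, at 16.6 ± 1.67 against 16.6 ± 2.70 CPM, with an interval of -0.28 to 0.28 on the log2 scale (edgeR adjusted p = 0.999). It was at 17.3, 19.5 and 21.1 CPM in MPTPKD, 14.1, 16.2 and 19.4 CPM in Ctrl and 18.4, 15.1 and 16.2 CPM in MPTP. MPTPKD overlapped both other groups and its log2 fold change was 0.22 against each of them (edgeR adjusted p = 0.788 against Ctrl and 0.703 against MPTP). Gpr34, a receptor for lysophosphatidylserine, was at 7.82, 8.29 and 8.72 CPM in Ctrl, 9.03, 9.12 and 10.01 CPM in MPTP and 9.77, 7.21 and 10.3 CPM in MPTPKD. The MPTP libraries were above all Ctrl libraries, with a log2 fold change of 0.18 (interval -0.14 to 0.50, edgeR adjusted p = 0.940), while MPTPKD 2 held the lowest value of all 9 libraries.

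Selplg, the ligand of P-selectin, was at 17.5, 20.4 and 18.9 CPM in Ctrl, 19.1, 21.1 and 17.5 CPM in MPTP and 20.8, 22.3 and 21.2 CPM in MPTPKD. MPTPKD was above every Ctrl library by a log2 fold change of 0.18 (interval -0.029 to 0.38, edgeR adjusted p = 0.783) and overlapped MPTP. Siglech, a sialic acid-binding lectin, was at 9.12, 10.99 and 8.55 CPM in Ctrl, 9.54, 10.3 and 6.94 CPM in MPTP and 8.50, 8.67 and 8.18 CPM in MPTPKD. It was 1 of the 2 members with a negative log2 fold change in both comparisons with Ctrl, at -0.10 in MPTP (interval -0.44 to 0.24, edgeR adjusted p = 0.973) and -0.18 in MPTPKD (interval -0.52 to 0.17, edgeR adjusted p = 0.877). The 3 groups overlapped, and MPTP 3 held the lowest value. Without Ctrl 2 these values were 0.013 and -0.064, and without MPTP 3 the first was 0.054. The ratio of P2ry12 to Siglech counts was 1.67, 1.47 and 1.91 in Ctrl, 2.04, 2.11 and 2.53 in MPTP and 2.33, 2.54 and 2.62 in MPTPKD. Ctrl was below both other groups without overlap, as it was for P2ry12 alone. This pair was set side by side with their levels known, so the gap supports nothing further. The share of other gene pairs apart in this way was not computed.

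Olfml3, a secreted olfactomedin-domain protein, was at 17.1, 16.6 and 12.4 CPM in Ctrl, 18.7, 16.7 and 17.0 CPM in MPTP and 16.8, 17.7 and 22.0 CPM in MPTPKD. Ctrl 3 was the lowest and MPTPKD 3 the highest library. The log2 fold change of MPTPKD against Ctrl was 0.29 (interval 0.00027 to 0.58, edgeR adjusted p = 0.740), and it was 0.16 without Ctrl 3 and 0.17 without MPTPKD 3. Without Ctrl 3 and MPTP 1 the difference of MPTP from Ctrl, 0.18 with all libraries, was -0.00024. Aif1 encodes Iba1, the calcium- and actin-binding protein by which microglia are usually stained. It was at 2.17, 3.64 and 1.92 CPM in Ctrl, 2.07, 2.05 and 3.09 CPM in MPTP and 2.57, 1.91 and 2.22 CPM in MPTPKD. Aif1 rested on 64 to 140 counts a library, where counting error alone is 12.5% to 8.45%, and its interval for MPTP against Ctrl ran from -0.74 to 0.54.

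**Figure D2:**
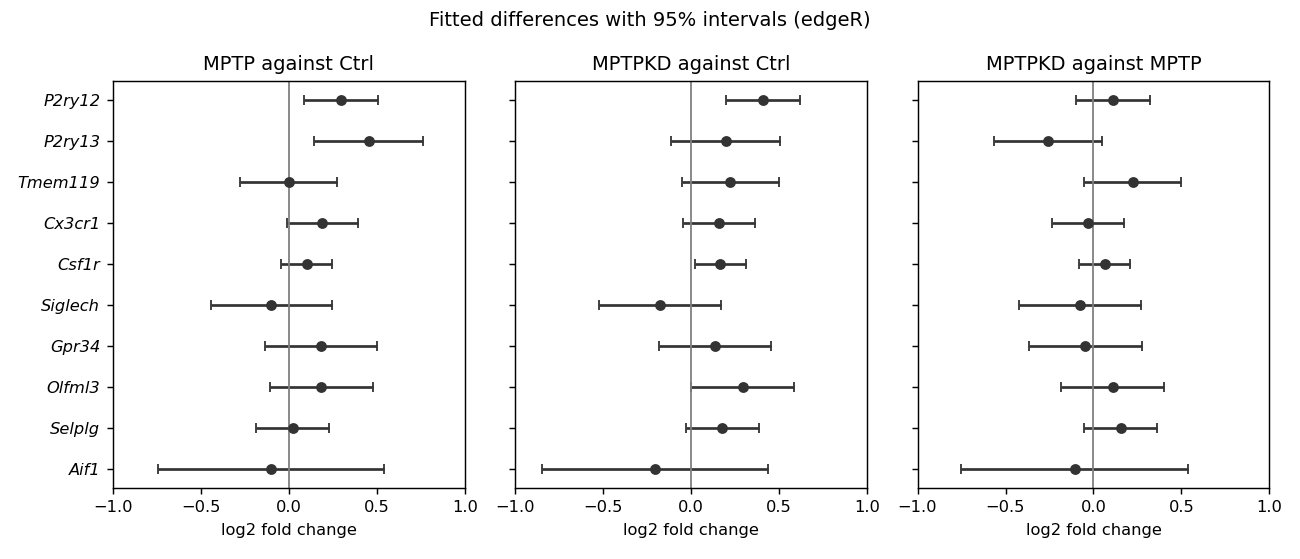
Fitted log2 fold change (x axis) of each of the 10 genes (y axis) in the 3 comparisons, with 95% intervals from the edgeR fit that are not corrected for the number of genes. Intervals clear of 0 are those of P2ry12 and P2ry13 for MPTP against Ctrl, and of P2ry12, Csf1r and Olfml3 for MPTPKD against Ctrl, and none of these passed the adjusted threshold.

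As a group, the members lay slightly above Ctrl in MPTP. In MPTP against Ctrl 0 of 10 passed, where 2 of all 14949 genes did (0.0134%). At an unadjusted p under 0.05 there were 2 of 10, P2ry12 and P2ry13, both higher, against 5.36% of all genes in either direction and 2.68% higher, and by DESeq2 and limma 0 of 10 passed. The log2 fold change was above 0 for 8 of 10 members and for 49.6% of all genes, with a median of 0.14 for the members and -0.00092 for all genes. The MPTP libraries were all higher than the Ctrl libraries for 4 members (P2ry12, P2ry13, Cx3cr1 and Gpr34), against 5.14% of all genes, and all lower for 0, against 5.41%. Leaving out Ctrl 1 gave 6 of 10 above 0 and a median of 0.068, and leaving out Ctrl 2 gave 9 of 10 and 0.21. Leaving out Ctrl 3 together with MPTP 1 gave 7 of 10 and 0.055. The count at an unadjusted p under 0.05 was 1 without MPTP 2 and 4 without Ctrl 2. Of all 14949 genes, 728 and 928 had such a p in these settings, in either direction.

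Between MPTPKD and MPTP the members were evenly divided. None of the 10 passed by edgeR, DESeq2 or limma. Of all genes 0.0% passed by edgeR, 0 by limma and 19 genes by DESeq2. Of the members 0 of 10 had an unadjusted edgeR p under 0.05 (7.78% of all genes, 3.76% with the higher level in MPTPKD). The log2 fold change was above 0 for 5 and below 0 for 5, with a median of 0.016, where 50.2% of all genes were above 0. The groups were apart for P2ry13 alone, lower in MPTPKD, against 7.1% of all genes lower in that way and 6.64% higher. Without MPTPKD 1 it was 3 members higher and 2 lower throughout. Groups stand apart more easily with a library left out, and the share of all genes apart was not computed for that setting. Between libraries of the same replicate number, P2ry12 and Selplg were higher in MPTPKD in 3 of 3 pairs, against 16.3% of all genes, and P2ry13 was lower in 3 of 3, against 15.3%. For P2ry13 the 3 of 3 follows from the groups being apart and adds nothing. The labels do not say what libraries of the same number share. The adjusted p-values from edgeR ran from 0.686 to 0.962.

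Against Ctrl the MPTPKD group again had 8 of 10 members above 0, with a median of 0.17, where 49.5% of all genes were above 0. None of the 10 passed by edgeR, DESeq2 or limma, and by edgeR 0.0% of all genes did. At an unadjusted edgeR p under 0.05 there were 3, P2ry12, Csf1r and Olfml3, all higher, against 6.73% of all genes in either direction and 3.36% higher. P2ry12 and Selplg were higher in every MPTPKD library than in every Ctrl library, against 6.28% of all genes, and 0 members were lower throughout, against 6.4%. Leaving out single libraries moved the count at an unadjusted p under 0.05 to 1 without MPTPKD 3 and to 5 without Ctrl 2. Of all 14949 genes, 829 and 1086 had such a p in these settings, in either direction. The count higher throughout became 5 without MPTPKD 1 and 4 without Ctrl 2 or MPTPKD 3. With a library left out, groups stand apart more easily, so the 6.28% does not apply to these counts higher throughout. The share of all genes higher throughout was not computed for these settings. This comparison and that of MPTP against Ctrl share the 3 Ctrl libraries, so a low or high Ctrl library enters both, and MPTP and MPTPKD are no independent repeats.

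The members' mean level ranged more widely over the single Ctrl libraries than over the means of the 3 groups, which average 3 libraries each. Ctrl 1 held the lowest of the 9 values for 6 members (P2ry12, P2ry13, Tmem119, Cx3cr1, Csf1r and Selplg) and the highest for 0. Summed over the 10 genes, the level was 182, 214 and 196 CPM in Ctrl, 220, 217 and 211 CPM in MPTP and 217, 226 and 229 CPM in MPTPKD. Ctrl 2 was above MPTP 3 and below the other 5 libraries of MPTP-treated mice. The mean log2 level of the members, set against the Ctrl mean, was -0.11, 0.15 and -0.040 in Ctrl, 0.14, 0.12 and 0.12 in MPTP and 0.14, 0.11 and 0.18 in MPTPKD. The means of MPTP and MPTPKD were 0.13 and 0.14. The SD over libraries was 0.13 in Ctrl, 0.015 in MPTP and 0.036 in MPTPKD. By the mean log2 level Ctrl 2 was above 5 of the 6 libraries from MPTP-treated mice.

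**Figure D3:**
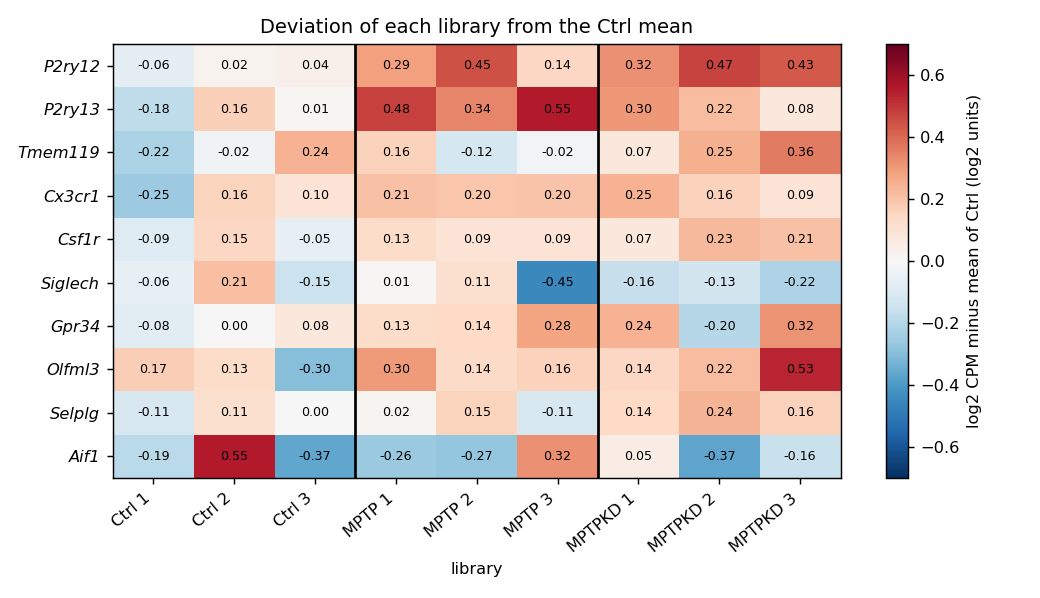
Log2 CPM of each of the 10 genes (rows) in each library (columns) minus the mean log2 CPM of the 3 Ctrl libraries, coloured from blue (lower) to red (higher). P2ry12 and P2ry13 are above 0 in all 6 libraries of MPTP-treated mice, while Aif1 ranges from -0.37 to 0.55 within Ctrl alone.

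The spread within groups also differed between members. The SD of log2 CPM within groups was 0.0888 for Csf1r, 0.103 for P2ry12, 0.105 for Selplg and 0.364 for Aif1. Measured against tested genes within 1.5 times the same mean CPM, P2ry13 was among the steadier, with 19.1% of 1949 genes steadier still, as was P2ry12 with 29.6% of 2930. Olfml3, Cx3cr1 and Tmem119 were among the more variable, with 84.0%, 80.4% and 77.9% of genes of like level steadier.

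Per length, Csf1r was the most abundant member and Aif1 the least. The mean over the 9 libraries was 14.7 FPKM for Csf1r, 10.6 for Selplg, 9.52 for Cx3cr1, 9.09 for P2ry12, 7.39 for Tmem119, 4.29 for Gpr34, 4.23 for Siglech, 3.002 for P2ry13, 2.98 for Olfml3 and 2.69 for Aif1. These are middling to low levels in nigral RNA: 68.7% of tested genes had a lower mean FPKM than Csf1r and 25.7% a lower one than Aif1. As CPM, Olfml3 and Tmem119 were close, at means of 17.2 and 17.5 over the 9 libraries. The FPKM order rests on the transcript length used for each gene, and the rule behind that length is not known. Selplg, Cx3cr1 and P2ry12 overlapped in their ranges over libraries, and Tmem119 overlapped Cx3cr1 and P2ry12. Gpr34, Siglech, P2ry13, Olfml3 and Aif1 also overlapped each other. Tmem119, at 5.94 to 8.87 FPKM, did not overlap with Gpr34, at 3.41 to 5.07 FPKM. Csf1r, at 12.9 to 16.0 FPKM, overlapped Selplg only through a value of 15.4 FPKM in MPTPKD 2.

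That Selplg value and the P2ry12 levels depended on the unit. A gene's count and FPKM, with the library's total count, imply the transcript length used for it. The read total behind the authors' FPKM is not known. Another total would shift the implied lengths of all genes in a library together. For the 7 members other than P2ry12, Selplg and Siglech this length varied by a ratio of at most 1.08 over the libraries. For Selplg it was 1435 bases in MPTPKD 2, 73.8% of its median over the libraries, so that 745 counts, 2 more than the 743 of MPTPKD 3, became 15.4 against 10.7 FPKM. As FPKM, Selplg in MPTPKD was 1.25 times the Ctrl mean, and as CPM 1.13 times. For P2ry12 the implied length was 2109 to 2288 bases in Ctrl, 1880 to 2069 bases in MPTP and 1863 to 2185 bases in MPTPKD. The MPTP and Ctrl libraries did not overlap in it. That was also so for Gpr34, and for Tmem119 and Olfml3 by a small margin. Mean implied lengths in MPTP and Ctrl were 2339 and 2370 bases for Tmem119, and 5728 and 5794 bases for Olfml3. The share of all genes apart in this way was not computed. The ratio of MPTP to Ctrl for P2ry12 was 1.35 as FPKM and 1.23 as CPM. The ratio of longest to shortest implied length had a median of 1.03 over the 12482 genes whose counts reached 100 in each library, and it was above 1.2 for 6.71% of them. It was 1.14 for Siglech, 1.23 for P2ry12, which has 5 annotated transcripts of 619 to 2344 bases, and 1.37 for Selplg, which has 6 of 359 to 2314 bases. Use of other transcripts was not tested.

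**Figure D4:**
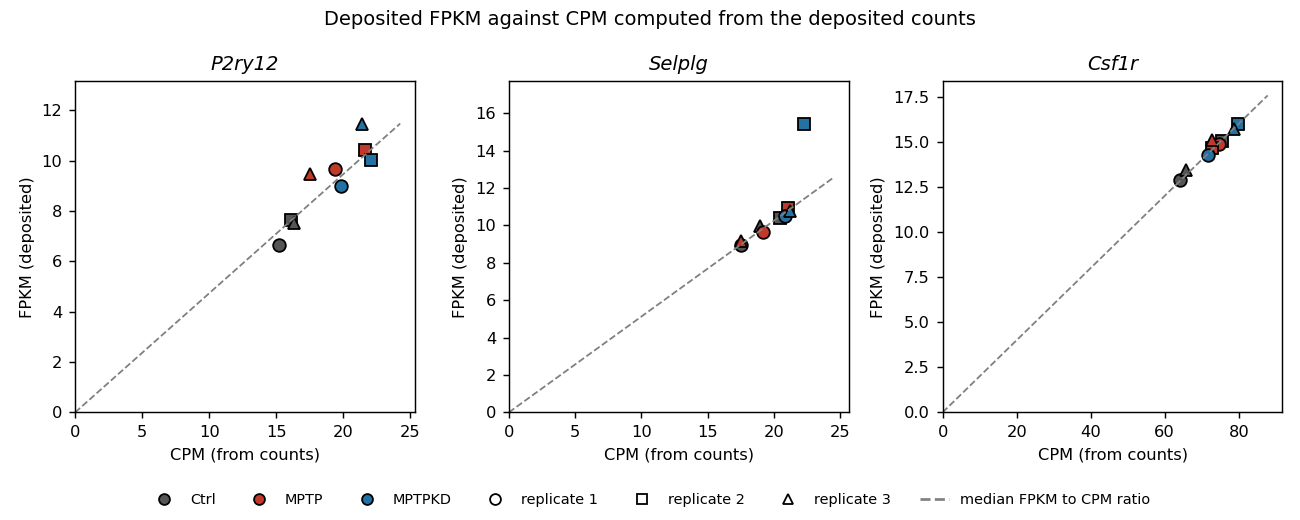
The authors' FPKM (y axis) against CPM from the deposited counts (x axis) in the 9 libraries for P2ry12, Selplg and, as a gene of steady implied length, Csf1r; the dashed line is the gene's median ratio of FPKM to CPM. Csf1r lies along its line, Selplg does so except for 15.4 FPKM in MPTPKD 2, and P2ry12 is below its line in Ctrl 1 and above it in MPTP 3 and MPTPKD 3.

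The ligands of these receptors did not pass the test in any comparison. Of the 9 ligands and partners listed, 6 could be tested, with a median log2 fold change of -0.012 for MPTP against Ctrl, 0.087 for MPTPKD against MPTP and 0.068 for MPTPKD against Ctrl. Selp, the selectin that binds Selplg, was too low to test, at 0 to 10 counts. Cx3cl1, the neuronal ligand of Cx3cr1, was at 325 ± 24.99 CPM in Ctrl, 349 ± 46.7 CPM in MPTP and 339 ± 33.5 CPM in MPTPKD. Of the Csf1r ligands, Il34 was at 20.3 ± 2.33, 19.2 ± 1.59 and 21.4 ± 2.62 CPM and Csf1 at 31.5 ± 1.64, 30.4 ± 1.62 and 29.5 ± 1.96 CPM in the same order.

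Other purinergic receptors, the transcription factors of microglia and the signalling genes behind Tgfb1 and Csf1r also had 0 members past the threshold in the 3 comparisons. The median of the 11 purinergic receptors tested of 17 was -0.088 for MPTP against Ctrl, 0.089 for MPTPKD against MPTP and 0.072 for MPTPKD against Ctrl. The highest of them per length were Adora1, an adenosine receptor that neurons also carry, P2rx4 and P2ry1. For the 12 transcription factors tested of 13 the medians were -0.055, 0.0095 and -0.0048, and the most abundant, Mef2a, Mef2c and Bhlhe41, are also expressed by neurons or other glia. For the 11 signalling genes, led by Grb2, Smad4 and Smad2, they were 0.042, -0.0092 and 0.022.

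A wider list of 32 microglial identity genes also lay mostly above Ctrl. In MPTP against Ctrl 22 of 32 were above 0, with a median of 0.094, in MPTPKD against MPTP 19 of 32 with 0.036, and in MPTPKD against Ctrl 21 of 32 with 0.10, and 0 passed in each. Their summed level was 2556 to 2584 CPM in Ctrl, 2544 to 2621 CPM in MPTP and 2554 to 2685 CPM in MPTPKD, and it is dominated by Cst3 and Sparc, which astrocytes and vessels express too.

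Of 20 disease-associated microglial genes, 14 could be tested and 0 passed in any comparison. In MPTP against Ctrl 4 were above 0 and 10 below, with a median of -0.033, and the medians were 0.031 for MPTPKD against MPTP and 0.033 for MPTPKD against Ctrl. Cst7, Itgax, Clec7a, Gpnmb, Lilrb4a and Cybb, among the more selective genes of that state, were too low to test, at 0 to 85 counts a library. The most abundant, Apoe, Ctsd and Timp2, are also made by astrocytes or neurons. Of 12 border macrophage genes 6 were tested, with medians of -0.21, 0.35 and 0.30 in the 3 comparisons and a summed level of 23.7 to 29.9 CPM in Ctrl, 24.9 to 27.0 CPM in MPTP and 26.6 to 43.1 CPM in MPTPKD. That list was highest in MPTPKD 3, the library in which Olfml3 and the meningeal fibroblast list were also highest. The part of either list in the Olfml3 value was not tested.

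Markers of other cells moved between libraries too. The 9 genes of mature oligodendrocytes, the myelin-forming cells, had medians of 0.18 for MPTP against Ctrl and 0.25 for MPTPKD against Ctrl, with 8 and 9 of 9 above 0 and 0 past the threshold. Their summed level was 10190, 12418 and 11002 CPM in Ctrl, 12709, 13216 and 10764 CPM in MPTP and 12992, 14293 and 13179 CPM in MPTPKD. Ctrl 1 was the lowest library for this list as for the summed homeostatic genes, and its part in the differences of the homeostatic genes from Ctrl was not tested. The 8 dopamine neuron genes had medians of -0.37 and -0.36 in the same comparisons, with 8 of 8 below 0 and 0 past the threshold. Among them Th, the enzyme that starts dopamine synthesis, was at 87.0 ± 19.9 CPM in Ctrl, 62.4 ± 6.49 CPM in MPTP and 61.9 ± 15.2 CPM in MPTPKD. The meningeal list had medians of -0.70 for MPTP against Ctrl and 0.82 for MPTPKD against MPTP, with 10 of 10 genes below and above 0.

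**Figure D5:**
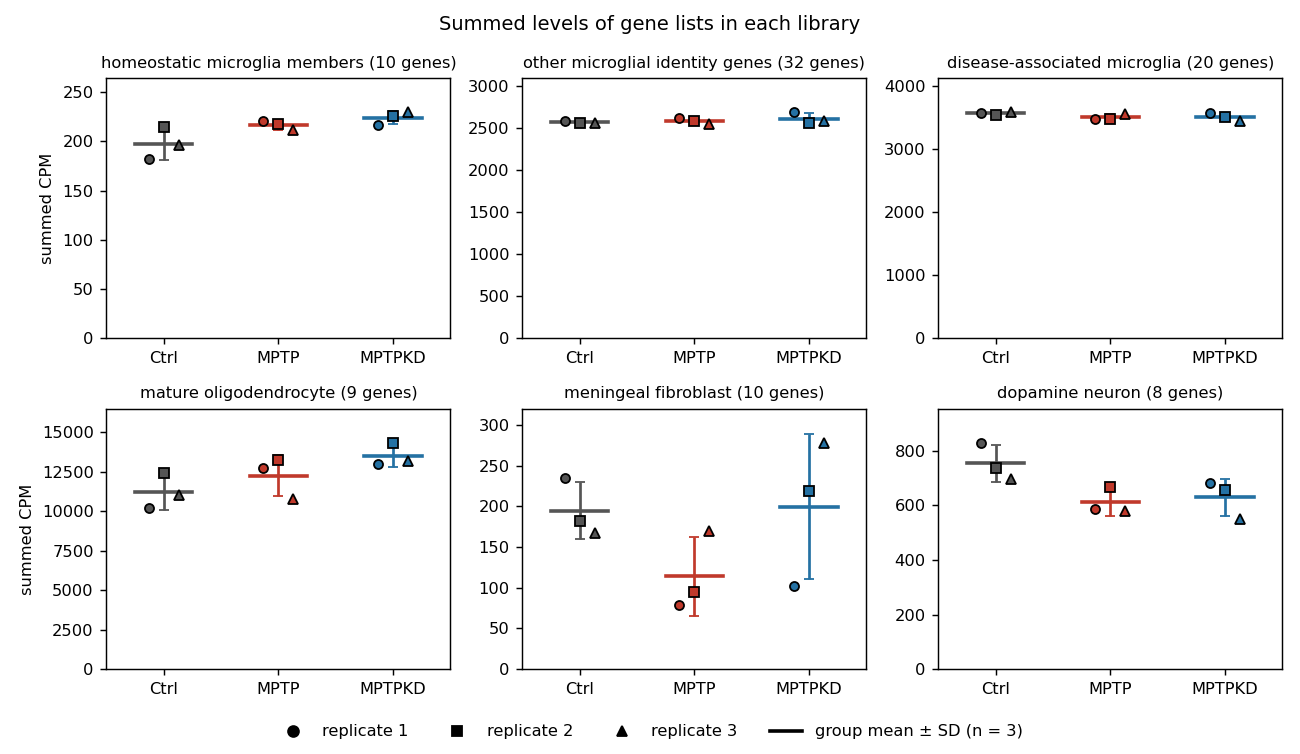
Summed CPM (y axis, starting at 0) of 6 gene lists in each library by group (x axis), with the group mean and SD (n = 3); genes too low to test are included in the sums. The homeostatic genes range from 182 to 229 CPM and are lowest in Ctrl 1, as are the oligodendrocyte genes, while the dopamine neuron genes are highest there.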

How the data were processed

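Nigral RNA was sequenced in bulk in 3 groups of 3 libraries, grouped by title; RNA was column-purified (RNeasy) and libraries made with the NEBNext Ultra kit, per the labels. The authors' deposited table pairs a raw count with an FPKM for each gene and library, per the file headers. Per the submitters' processing notes the build was mm10 (GRCm38); the sources used here do not give the aligner, counter, annotation or strand setting. Lines naming no gene (10) were left out, and 27 symbols that had become dates were restored from their identifiers.

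Counts were tested with edgeR 4.0.16 in R 4.3.3 (quasi-likelihood, robust, TMM factors 0.983 to 1.016), with all 9 libraries in 1 model and genes of mean FPKM of at least 0.5. The 12390 genes below that held at most 0.244% of a library's counts. The common biological coefficient of variation was 0.134. The fit was tested on simulated data. Alternatives were DESeq2 1.42.0 and limma 3.58.1 on log2(FPKM + 0.1) or log2(FPKM + 1), DESeq2 size factors, no filter, a replicate block, the groups compared alone, and libraries left out. Replicate numbers were taken to pair libraries where every pair correlated over 0.1 in deviations from the group means: 0.107 to 0.182 for MPTPKD and MPTP, -0.151 to 0.0472 for MPTP and Ctrl, and -0.00735 to 0.0783 for MPTPKD and Ctrl. Correlations between libraries of different number were not computed for comparison. No libraries within a group agreed within sampling noise.

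Members, lists and the letters searched in start windows were chosen with earlier results of these data known. All members were named, with the 3 most abundant genes per length of each list, overlapping genes, and Ttr and Th as checks, apart from some genes not reported here; low genes are named because they were not tested.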

Additional observations from a re-analysis of the deposited data

How the results depend on the processing

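No member passed the threshold under any of the alternatives. Over 170 member values per comparison the direction turned in 11 for MPTP against Ctrl, 6 for MPTPKD against MPTP and 1 for MPTPKD against Ctrl, and the lowest adjusted p was 0.438, 0.525 and 0.131, the last for P2ry12 by DESeq2. P2ry12 against Ctrl stayed at 0.22 to 0.43 in MPTP and 0.38 to 0.47 in MPTPKD. The log2 fold change for MPTP against Ctrl was -0.0021 for Tmem119 with no filter and -0.00024 for Olfml3 without Ctrl 3 and MPTP 1. Leaving out single libraries moved Tmem119 from -0.10 to 0.13, Siglech from -0.21 to 0.054, Selplg from -0.045 to 0.087 and Aif1 from -0.32 to 0.23. For MPTPKD against MPTP it moved Cx3cr1 from -0.072 to 0.0030, Siglech from -0.23 to 0.037, Gpr34 from -0.15 to 0.097, Olfml3 from -0.021 to 0.18, Aif1 from -0.22 to 0.12 and the members' median from -0.0090 to 0.059, and for MPTPKD against Ctrl Aif1 from -0.38 to 0.13. The cause was not tested.

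The number of all genes called for MPTP against Ctrl, 2, was 14 by DESeq2, 0 by limma with either pseudocount, 1 without Ctrl 3 and MPTP 1, and 0 to 4 with single libraries left out. For MPTPKD against MPTP, 0, it was 19 by DESeq2, 1 without Ctrl 3 and MPTP 1, and 0 to 1 with single libraries left out. For MPTPKD against Ctrl, 0, it was 16 by DESeq2, 1 with no filter, 4 with the groups compared alone, and 0 to 4 with single libraries left out. With the replicate block it was 5 for MPTPKD against Ctrl, where P2ry12 had an adjusted p of 0.310, and the block changed no member's call. Depth was lowest for Aif1, whose counting error at 64 counts is 12.5%, below its spread within groups (an SD of 1.29-fold).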
